A study of Mus musculus with 3 samples.

Results

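Transcripts of 8 co-inhibitory receptors of T cells other than Ctla4 were followed in regulatory T cells (Tregs) of mouse epidermis, dermis and lymph node: Pdcd1, Lag3, Havcr2, Tigit, Klrg1, Btla, Cd96 and Cd5. They were chosen by gene symbol, and all 8 were found among the 27998 genes of each of the 3 deposited matrices. The study profiled single Tregs of adult mice of 1 strain, FOXP3-EGFP (C.Cg-Foxp3tm2Tch/J), in which a green fluorescent reporter marks cells that express Foxp3. Epidermal Tregs came from back skin split with thermolysin, dermal Tregs from the other layer after added collagenase digestion, and lymph node Tregs from mashed nodes. GFP+ CD4+ CD3+ CD45+ cells were sorted in each case, and mice of all groups carried the reporter allele. Skin cells were run with the v3 chemistry of the 10x 3′ kit and lymph node cells with v2. Tissue, tissue handling and chemistry therefore cannot be told apart in any comparison of skin with lymph node. Between epidermis and dermis, layer and digestion cannot be told apart either. The mix of sexes differed too: both skin libraries held cells with Y-linked transcripts, and lymph node held none. Each tissue gave 1 library, and the sources used here do not give the number of animals behind it. No test between tissues could therefore be run: every interval below is a 95% interval of counting error only, and it says nothing of how animals differ.

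Co-inhibitory receptors are surface proteins that dampen T cell activation when they bind a ligand on a neighbouring cell, mostly through tyrosine motifs in their tails that recruit phosphatases or compete for kinases. On conventional T cells several of them accumulate with repeated antigen contact. On Tregs they are also markers of activated cells, and KLRG1 and TIM-3 in particular are known from effector Tregs of mouse tissues. PD-1 (Pdcd1) binds PD-L1 and PD-L2, LAG-3 (Lag3) binds MHC class II, and TIM-3 (Havcr2) binds galectin-9 and phosphatidylserine. TIGIT (Tigit) and CD96 (Cd96) share the ligand CD155 with the activating receptor CD226. KLRG1 (Klrg1) binds cadherins, including E-cadherin of epithelia, BTLA (Btla) binds HVEM, and CD5 (Cd5) tunes signals from the T cell receptor.

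Cells were kept with at least 500 unique molecular identifiers (UMIs, 1 per captured transcript) and at most 10% of UMIs on mitochondrial genes. Of 360 barcodes from epidermis 297 were kept, of 1077 from dermis 875, and of 9419 from lymph node 9400, with 2205131, 4630059 and 32906839 UMIs and medians of 6671, 4726 and 3022 UMIs per cell. Foxp3 itself gave a UMI in 39.7% of cells from epidermis, 47.0% from dermis and 7.17% from lymph node. Among marker lists of 10 other cell types, the summed level of 6 CD8 T and NK cell genes was 46.7 CPM (UMIs per 1e+06 of the library) in epidermis, 19.9 CPM in dermis and 20.6 CPM in lymph node, with the NK cell gene Ncr1 at 0 in every library. Keratinocyte genes summed to 52.2, 157 and 23.6 CPM in the same order of tissues, with 87.5 CPM of the dermal sum from Sfn. Dendritic and Langerhans cell genes had the highest sums of these lists, 450, 505 and 226 CPM. Of those, Cd74 gave 365, 360 and 182 CPM. A list of 7 cycling genes summed to 582, 131 and 104 CPM. The part of other cell types and of cycling cells in the receptor values was not tested. Epidermis and dermis shared 41 kept barcodes, and neither shared any with lymph node. In 29 of the 41 the epidermal copy was the deeper one, and the dermal copy held 7.09% to 8.60% of its UMIs. In 8 the dermal copy was deeper, and the epidermal one held 4.22% to 4.96% of its UMIs. A median of 98.8% and 99.1% of the genes in the shallower copies were also in the deeper ones, and 4 barcodes had like, low depths in both. Shared barcodes held 24.3% of epidermal and 5.29% of dermal UMIs. The receptor ratios over all kept cells are therefore also given without them, in text or figure. Other skin results hold these barcodes unless stated.

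In mm10, 3 of the genes lie within 2471385 bases of chromosome 16: Tigit (43648867 to 43664146, minus strand), Btla (45224315 to 45257670, plus strand) and Cd96 (46035657 to 46120251, minus strand). Klrg1 (122270596 to 122282882) and Lag3 (124904361 to 124911705) lie 2621478 bases apart on the minus strand of chromosome 6. Pdcd1 is on chromosome 1 (94038305 to 94052553, minus strand), Havcr2 on chromosome 11 (46454935 to 46481255, plus strand) and Cd5 on chromosome 19 (10717116 to 10739002, minus strand). No annotated gene overlaps any of the 8. Of the 3 on chromosome 16, against lymph node, Tigit stood higher in both skin layers, Cd96 lower, and Btla under 2-fold. Promoters of 6 of the 8 genes were matched in RefSeq (GRCm38.p6, 250 bases before to 50 bases after the gene start), and those of Klrg1 and Lag3 were not used here. Of the 6, the 4 that passed 2-fold against lymph node in at least 1 skin layer are shown. Havcr2 (chr11:46454681-46454980, plus strand) and Tigit (chr16:43664135-43664434, minus strand) stood higher in skin, and Cd96 (chr16:46120199-46120498, minus strand) and Pdcd1 (chr1:94052504-94052803, minus strand) lower in dermis. Capitals mark matches, on either strand, to 4 short motifs: AP-1 (TGANTCA), TCF (CTTTGA), RUNX (TGTGGT) and forkhead (TAAACA).
Havcr2: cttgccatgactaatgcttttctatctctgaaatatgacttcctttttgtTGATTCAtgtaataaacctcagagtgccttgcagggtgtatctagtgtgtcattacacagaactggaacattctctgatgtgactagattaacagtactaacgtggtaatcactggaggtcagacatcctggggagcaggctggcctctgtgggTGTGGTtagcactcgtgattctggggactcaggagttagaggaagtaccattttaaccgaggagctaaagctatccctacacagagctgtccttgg
Tigit: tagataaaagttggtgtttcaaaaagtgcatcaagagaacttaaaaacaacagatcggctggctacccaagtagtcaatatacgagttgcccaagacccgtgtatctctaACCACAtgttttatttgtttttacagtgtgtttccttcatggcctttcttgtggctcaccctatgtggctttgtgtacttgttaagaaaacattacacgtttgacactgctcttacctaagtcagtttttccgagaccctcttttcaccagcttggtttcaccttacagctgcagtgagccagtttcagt
Cd96: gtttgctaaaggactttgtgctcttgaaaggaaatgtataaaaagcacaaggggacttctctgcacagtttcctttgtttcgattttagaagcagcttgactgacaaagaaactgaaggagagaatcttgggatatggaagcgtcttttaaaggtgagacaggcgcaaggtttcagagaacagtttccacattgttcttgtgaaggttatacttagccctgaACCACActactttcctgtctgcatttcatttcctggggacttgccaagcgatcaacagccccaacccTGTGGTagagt
Pdcd1: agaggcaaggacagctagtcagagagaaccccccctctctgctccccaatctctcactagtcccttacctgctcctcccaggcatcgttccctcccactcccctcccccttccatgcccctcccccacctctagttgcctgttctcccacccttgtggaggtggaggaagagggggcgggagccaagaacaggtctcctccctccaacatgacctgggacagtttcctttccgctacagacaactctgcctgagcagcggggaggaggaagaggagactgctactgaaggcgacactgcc
The Havcr2 window held 1 AP-1 and 1 RUNX match, the Tigit window 1 RUNX match, the Cd96 window 2 RUNX matches and the Pdcd1 window none. Of the other windows, that of Btla held 1 RUNX match and that of Cd5 held 1 forkhead match. Among 32851 promoter windows of the same length, 7.81% held the AP-1 letters, 16.0% the TCF letters, 16.8% the RUNX letters and 13.4% the forkhead letters. RUNX letters were thus found in promoters of receptors of both directions, and a match describes the letters of the window only.

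Klrg1, Havcr2 and Tigit stood higher in both skin layers than in lymph node. Klrg1 had 111 CPM in epidermis (97.6 to 126), 233 CPM in dermis (219 to 247) and 20.7 CPM in lymph node (19.1 to 22.3), from 245, 1077 and 680 UMIs. Against lymph node it stood 5.38-fold higher in epidermis (4.63 to 6.23) and 11.3-fold higher in dermis (10.2 to 12.4). It was also the one receptor past 2-fold in favour of dermis between the layers, 2.09-fold lower in epidermis (1.82 to 2.42). That call was lost in 3 of 18 alternative settings: the log2 ratio of -1.07 was -0.98 with at least 1000 UMIs and at most 5% mitochondrial UMIs per cell, -0.95 with totals without mitochondrial and ribosomal protein genes, and -0.70 without resting Treg-like clusters. Without shared barcodes the epidermal level was 2.32-fold lower than the dermal one (1.97 to 2.74) and 4.90-fold higher than that of lymph node, and the dermal level 11.3-fold higher. Of the 3, Klrg1 alone passed 2-fold between the skin layers. Havcr2 had 45.8 CPM in epidermis (37.3 to 55.7), 40.0 CPM in dermis (34.4 to 46.1) and 4.07 CPM in lymph node (3.41 to 4.82). It was 11.2-fold higher in epidermis (8.60 to 14.7) and 9.81-fold higher in dermis (7.81 to 12.3) than in lymph node, and the skin layers lay within counting error of each other (1.15-fold, 0.890 to 1.47). Tigit had 18.6 CPM in epidermis (13.3 to 25.2), 16.6 CPM in dermis (13.1 to 20.8) and 3.98 CPM in lymph node (3.33 to 4.72). The epidermal level was 4.67-fold (3.21 to 6.68) and the dermal level 4.18-fold (3.11 to 5.58) that of lymph node, and the layers again overlapped (1.12-fold, 0.746 to 1.65). Without shared barcodes Havcr2 stood 10.9-fold higher in epidermis and 9.91-fold higher in dermis than in lymph node, and Tigit 4.21-fold and 4.07-fold higher. In cells with a Foxp3 UMI the log2 ratio of Klrg1 against lymph node was 1.58 in epidermis and 2.74 in dermis, against 2.43 and 3.49 in all kept cells. That of Havcr2 in dermis was 2.60 in cells with a Foxp3 UMI, against 3.29.

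**Figure D1:**
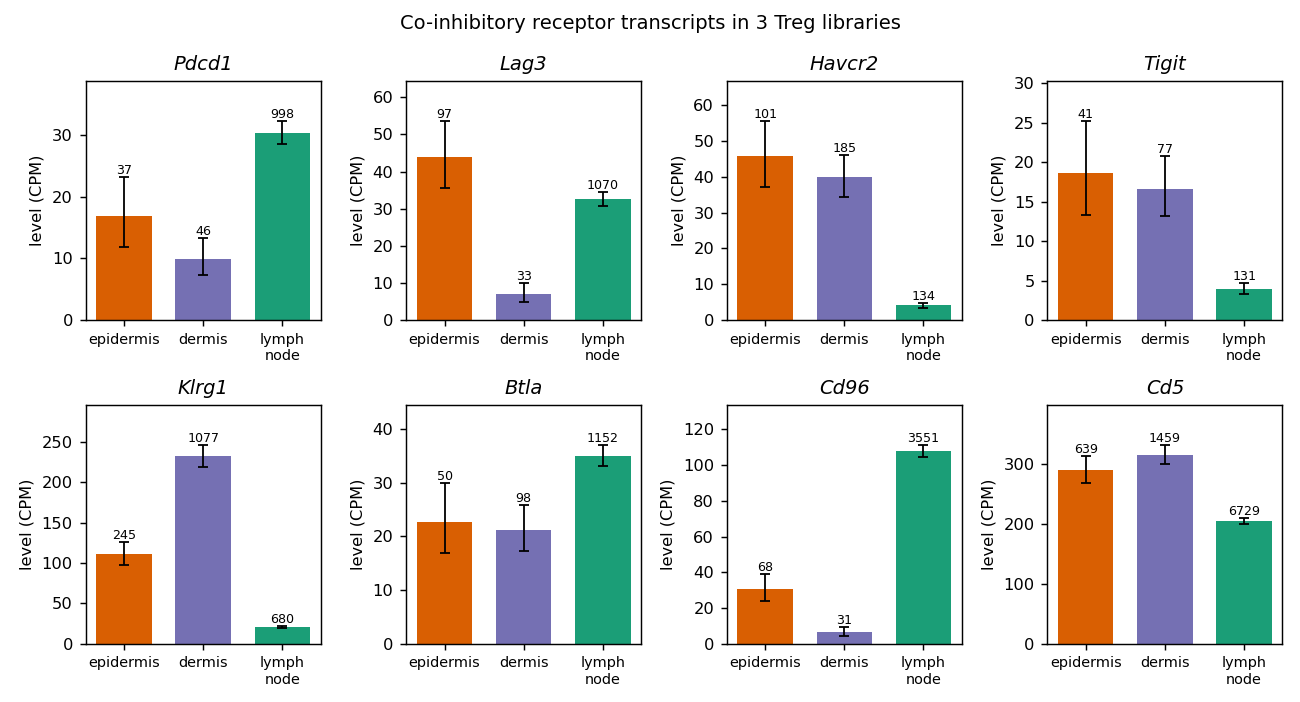
Level of each receptor in CPM (UMIs per 1e+06 of the library) in the epidermal, dermal and lymph node library, with exact 95% Poisson intervals (counting error only) and the number of UMIs above each bar; each panel has its own axis from 0. Klrg1, Havcr2, Tigit and Cd5 stand lowest in lymph node, Cd96, Pdcd1 and Btla highest there, and Lag3 lowest in dermis.

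Cd96 and Pdcd1 went the other way. Cd96 had 30.8 CPM in epidermis (23.9 to 39.1), 6.70 CPM in dermis (4.55 to 9.50) and 108 CPM in lymph node (104 to 112), with no overlap between any of the intervals. It was 3.50-fold lower in epidermis (2.75 to 4.52) and 16.1-fold lower in dermis (11.3 to 23.8) than in lymph node, the widest difference of the 8 receptors in any comparison. Epidermis stood 4.61-fold above dermis (2.97 to 7.29). Without shared barcodes these values were 2.90-fold lower, 16.3-fold lower and 5.62-fold higher. Pdcd1 had 16.8 CPM in epidermis (11.8 to 23.1), 9.94 CPM in dermis (7.27 to 13.3) and 30.3 CPM in lymph node (28.5 to 32.3). Its dermal level was 3.05-fold lower than in lymph node (2.27 to 4.20) and its epidermal level 1.81-fold lower (1.30 to 2.58), which missed the 2-fold limit. Between the layers Pdcd1 stood 1.69-fold higher in epidermis (1.07 to 2.66), also under 2-fold, on 37 epidermal and 46 dermal UMIs. Of these UMIs, 5 cells held 45.9% in epidermis and 5 cells held 39.1% in dermis, and the interval does not allow for such clumping. Without shared barcodes Pdcd1 was 1.94-fold higher in epidermis than in dermis, 1.63-fold lower in epidermis and 3.17-fold lower in dermis than in lymph node.

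In summed level, Lag3 set the layers of skin apart. It had 44.0 CPM in epidermis (35.7 to 53.7), 7.13 CPM in dermis (4.91 to 10.0) and 32.5 CPM in lymph node (30.6 to 34.5). The epidermal level was 6.17-fold higher than the dermal one (4.12 to 9.46), and the dermal level 4.56-fold lower than in lymph node (3.23 to 6.66). Epidermis stood 1.35-fold above lymph node (1.09 to 1.67), short of 2-fold. The epidermal transcripts were concentrated: 5 cells held 60 of the 97 UMIs (61.9%), against 36.4% in the top 5 dermal and 3.83% in the top 5 lymph node cells, and shared barcodes held 41 of the 97. Without shared barcodes epidermal Lag3 was 33.6 CPM, 5.26-fold higher than in dermis (3.28 to 8.59), and 1.03-fold the lymph node level (0.774 to 1.35), while dermal Lag3 was 5.09-fold lower than in lymph node. With the mean of each cell's CPM, which gives every cell the same weight, the log2 ratio of Lag3 was 1.83 between epidermis and dermis and -1.52 between dermis and lymph node, against 2.63 and -2.19 with library sums. In cells with a Foxp3 UMI the log2 ratio between dermis and lymph node was -3.13. The 5 epidermal cells with a UMI of the CD8 T cell gene Cd8a held 2 of the 97 Lag3 UMIs.

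Btla and Cd5 differed least between tissues. Btla had 22.7 CPM in epidermis (16.8 to 29.9), 21.2 CPM in dermis (17.2 to 25.8) and 35.0 CPM in lymph node (33.0 to 37.1), so that it was 1.54-fold lower in epidermis (1.16 to 2.09) and 1.65-fold lower in dermis (1.34 to 2.05) than in lymph node. Cd5 had 290 CPM in epidermis (268 to 313), 315 CPM in dermis (299 to 332) and 204 CPM in lymph node (200 to 209). It was 1.42-fold higher in epidermis (1.30 to 1.54) and 1.54-fold higher in dermis (1.46 to 1.63) than in lymph node, and between the layers it was 0.920-fold (0.837 to 1.01). With library totals over all kept cells, no comparison of Btla or Cd5 reached 2-fold, and Cd5 did not in any alternative setting. Btla passed 2-fold in some: its log2 ratio between dermis and lymph node was -1.10 with TMM scaling factors and -1.05 with totals without mitochondrial and ribosomal protein genes, against -0.73. Between epidermis and lymph node it was -1.11 with TMM factors, -1.22 without resting Treg-like clusters and -1.06 in Xist-positive cells, against -0.63. No lymph node cluster had the resting Treg-like name, so that setting took cells from epidermis and none from lymph node. Names rest on genes that lead against the rest of the same library, so a missing name does not mean that resting cells are missing. Resting Treg genes summed to 3677, 4289 and 4574 CPM in lymph node clusters of 1414, 1297 and 1169 cells. In the epidermal resting Treg-like cluster they summed to 3916 CPM. Between epidermis and dermis the Btla ratio was 1.24 in Y-positive cells (27 and 4 UMIs), against 0.10. Without shared barcodes Btla was 1.12-fold higher in epidermis than in dermis, 1.43-fold lower in epidermis and 1.60-fold lower in dermis than in lymph node, and Cd5 was 0.989-fold, 1.54-fold and 1.56-fold in the same comparisons.

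**Figure D2:**
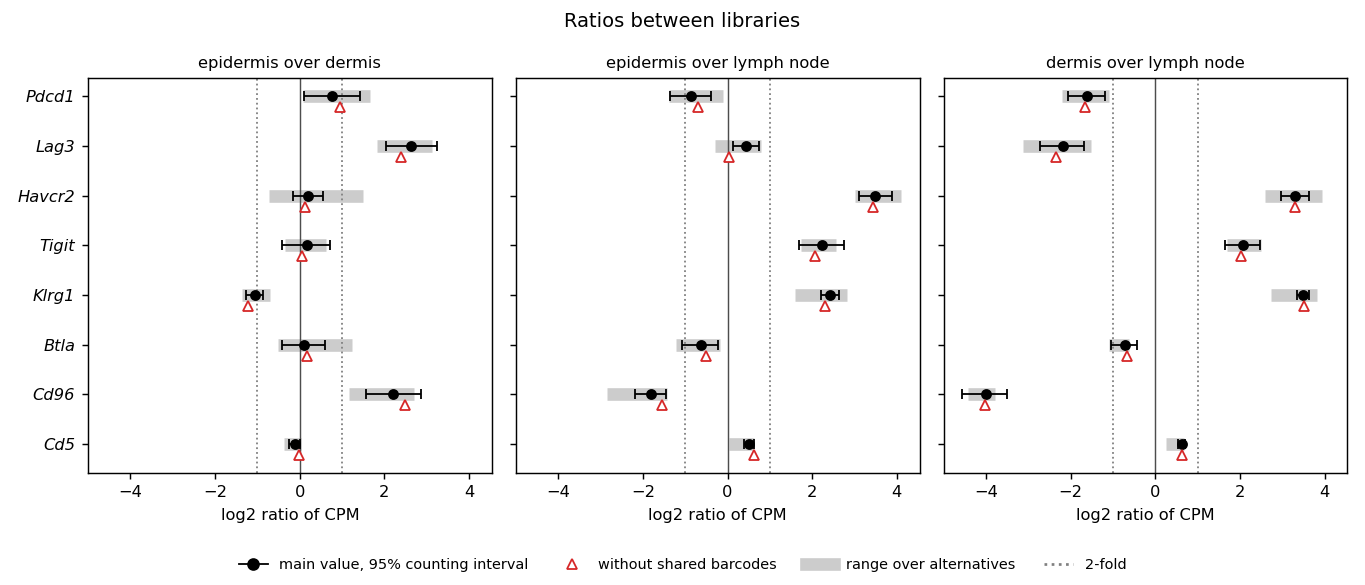
Log2 ratio of CPM for each receptor in the 3 comparisons (points, with 95% counting intervals); triangles leave out shared barcodes, grey bands span all alternative settings, and dotted lines mark 2-fold. Lag3 and Cd96 lie right of 2-fold between epidermis and dermis, and Cd96 lies furthest left against lymph node.

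A receptor was counted as higher or lower when it differed by at least 2-fold with at least 10 CPM in the higher library. Between epidermis and dermis, 2 of 8 receptors were higher (Lag3 and Cd96) and 1 was lower (Klrg1), against 5.34% of 7803 genes higher and 4.18% lower. Between epidermis and lymph node, 3 of 8 were higher (Havcr2, Klrg1 and Tigit) and 1 lower (Cd96), against 20.7% and 3.85% of 7796 genes. Between dermis and lymph node, 3 of 8 were higher (Klrg1, Havcr2 and Tigit) and 3 lower (Cd96, Lag3 and Pdcd1), against 24.1% and 10.3% of 7832 genes. The receptors' median log2 ratio was 0.18, 0.47 and -0.05 in these comparisons, beside 0.07, 0.20 and 0.14 for all genes, with receptors on both sides of 0 in each. The comparisons with lymph node share that library and are not independent of each other. Scaling moved the frame: with TMM factors the median of all genes was -0.04, -0.32 and -0.28 log2, with median-of-ratios factors -0.04, -0.19 and -0.15, and with totals without mitochondrial and ribosomal protein genes 0.20, -0.0027 and -0.21. The share of called genes that were higher was 56.1%, 84.3% and 70.2% with library totals. It was 44.3%, 42.8% and 42.2% with TMM, 45.3%, 54.5% and 51.0% with median-of-ratios factors, and 71.0%, 70.6% and 46.9% without mitochondrial and ribosomal protein genes. No receptor counted as higher or lower changed direction with scaling. Among the rest, TMM turned Lag3 between epidermis and lymph node (log2 0.44) to -0.04, and TMM and median-of-ratios factors turned Btla between epidermis and dermis (0.10) to -0.01.

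Shares of cells followed most of these levels. After each cell was thinned to 1500 UMIs, which kept 262 epidermal, 828 dermal and 9308 lymph node cells, the share with a Klrg1 UMI was 10.7% in epidermal cells (7.22% to 15.1%), 26.7% in dermal cells (23.7% to 29.8%) and 1.89% in lymph node cells (1.62% to 2.19%). Unthinned, the shares were 25.3%, 48.1% and 3.72%. The thinned share with a Cd96 UMI was 3.82% in epidermal cells (1.85% to 6.91%), 1.09% in dermal cells (0.498% to 2.05%) and 15.3% in lymph node cells (14.6% to 16.1%), and unthinned 15.8%, 3.09% and 30.0%. The thinned share with Havcr2 was 2.67% of cells in epidermis, 5.56% of cells in dermis and 0.398% of cells in lymph node, and unthinned 17.2%, 15.5% and 1.23%. The order of the layers there goes against the CPM and is not read, and 5 epidermal cells held 34 of the 101 Havcr2 UMIs. For Lag3 the thinned share was 3.44% in epidermal cells (1.58% to 6.42%), 1.09% in dermal cells (0.498% to 2.05%) and 3.32% in lymph node. The intervals of the skin layers overlap, on 9 cells with a UMI in each. Unthinned, the Lag3 shares were 9.09% (6.08% to 13.0%), 2.86% (1.86% to 4.19%) and 6.57%. Without shared barcodes the thinned Lag3 share was 2.59% in epidermis and 0.863% in dermis. Kept barcodes with under 2 UMIs of 4 T cell genes, or with over 3% of UMIs on markers of other cells, numbered 26, 37 and 100. Their median depths were 572.5, 1282 and 2157.5 UMIs. Klrg1 was found in 3.85%, 27.0% and 3% of them, Cd96 in 0%, 0% and 19%, and Havcr2 in none. There, 0 allows a share of cells with a UMI of up to 11.5%, 8.11% and 3%, and at these depths it sets no limit on cells that express the gene. All 37 of the dermal ones were set apart by few T cell UMIs and none by markers of other cells, so they are no cell type known to lack Klrg1, and the part of free transcripts in the dermal Klrg1 share was not tested. Without shared barcodes the thinned Klrg1 share was 10.8% in epidermis and 26.8% in dermis, and the Cd96 share 3.45% and 1.11%.

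**Figure D3:**
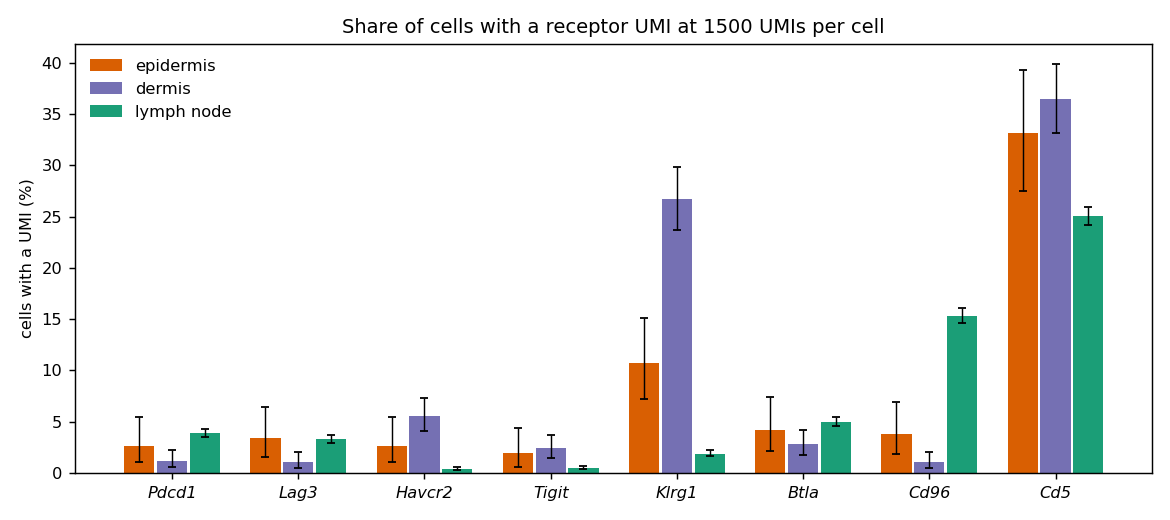
Share of cells with at least 1 UMI of each receptor after thinning every cell to 1500 UMIs, in epidermis, dermis and lymph node, with exact 95% Clopper-Pearson intervals. Klrg1 is found in 26.7% of dermal cells and Cd96 in 15.3% of lymph node cells, each more than in the other libraries.

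Counted together, the thinned cells carried on average 0.626 of the 8 receptors in epidermis, 0.773 receptors in dermis and 0.554 receptors in lymph node. Cells with none of the 8 made up 50% in epidermis, 41.9% of those in dermis and 54.6% of those in lymph node, and cells with 3 or more made up 0.763%, 2.54% and 0.817%. With Cd5 left out, the means were 0.294, 0.408 and 0.303, and without shared barcodes the mean of all 8 was 0.603 in epidermis and 0.777 in dermis. In lymph node, where cells were many enough to count pairs, 32 cells held both Pdcd1 and Lag3, where the product of the 2 shares gives 12.1 cells. Lag3 was found in 8.79% of Pdcd1-positive cells and in 3.10% of the others. Klrg1 and Cd96 were found together in 14 cells where the product gives 27.0, with Cd96 in 7.95% of Klrg1-positive and 15.5% of Klrg1-negative cells. Btla and Cd5 were found together in 85 cells, where the product gives 116. These are descriptions of cells of 1 library, in which cells differ in state.

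Within lymph node, cells were clustered without the 8 genes. The effector Treg-like cluster (870 cells, led by Gzmb, S100a4 and Ccr2) held 522 of the 680 Klrg1 UMIs and 92 of the 134 Havcr2 UMIs. Klrg1 reached 138 CPM there and 76.7 CPM in the cycling-like cluster, 11.4 CPM in 1 further cluster and at most 4.40 CPM in the other 9. Havcr2 reached 24.4 CPM in the effector Treg-like and 31.1 CPM in the cycling-like cluster, and at most 2.03 CPM elsewhere. Cd96 ran the opposite way, at 59.1 and 56.3 CPM in those clusters and 89.9 to 141 CPM in the others. Lag3 was highest in the effector Treg-like cluster, at 107 CPM (96.7 to 118). Pdcd1 was highest in 2 unnamed clusters, one of 963 cells led by Gpm6b and Nrn1 (85.2 CPM, 75.0 to 96.4) and one of 628 cells led by the activation genes Nr4a1, Egr2 and Nfkbid (83.5 CPM, 73.2 to 94.9). Lag3 stood at 69.0 and 65.1 CPM in the same 2 clusters. Tigit was 9.81 CPM in the effector Treg-like cluster, on 37 UMIs. Btla was 64.0 CPM in the Nr4a1-led cluster. It was highest, at 103 CPM (44.3 to 202) on 8 UMIs, in 15 cells led by genes including H2-Ab1 and Cd79a. Of these, 46.7% had T cell transcripts and few markers of other cells. Those 15 cells also gave the low end of the Cd96 range, 89.9 CPM, on 7 UMIs. Cd5 was 265 CPM in the effector Treg-like and 261 CPM in the Nr4a1-led cluster, against 168 to 218 CPM elsewhere.

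In epidermis the receptors split between a resting Treg-like cluster (74 cells, led by genes including Bcl2 and Tcf7) and the rest. Klrg1 had 0 UMIs in the 74 resting Treg-like cells, with an exact upper limit of 6.83 CPM, and 97.9 to 233 CPM in the other 4 clusters. Havcr2 likewise had 0 UMIs there, and 35.7 to 81.8 CPM in the others. Cd96 and Btla were highest there, with 43 of 68 Cd96 UMIs (79.6 CPM) and 25 of 50 Btla UMIs (46.3 CPM). Lag3 was highest in the cycling-like cluster (96.1 CPM, 54 of 97 UMIs), and so was Havcr2 (81.8 CPM, 46 of 101 UMIs). That cluster of 49 cells held 24 of the 41 shared barcodes. In its 25 other cells Lag3 was 212 CPM (142 to 304, 29 UMIs) and Havcr2 183 CPM (118 to 270, 25 UMIs), again the highest of the 5 clusters. Klrg1 in the other 4 clusters was 73.1 to 171 CPM without shared barcodes, and the resting Treg-like cluster, with 72 cells left, still had 0 Klrg1 and 0 Havcr2 UMIs. Without cycling-like clusters the log2 ratio of Lag3 was 1.88 between epidermis and dermis and -0.30 between epidermis and lymph node. With them it was 2.63 and 0.44. No dermal cluster had the cycling-like name, so this setting took nothing from dermis. A dermal cluster led by the cycling genes Ccnb2, Birc5 and Stmn1 stayed in, so the 1.88 is not a like-for-like value. Tigit was highest in the effector Treg-like cluster (40.9 CPM, 24.2 to 64.6, 18 UMIs). Pdcd1 was highest in an unnamed one led by genes including Apoe and Serpinb1a (42.8 CPM, 23.4 to 71.9, 14 UMIs). Both intervals overlap those of other epidermal clusters.

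Dermal clusters differed less in Klrg1. It was at 192 to 282 CPM in all 10 clusters. The largest, an unnamed cluster of 187 cells led by genes of keratinocytes and vessel walls, among them Krt14 and Acta2, had 268 CPM, and a cluster of 36 cells, of which 69.4% had T cell transcripts and few markers of other cells, had 205 CPM. The resting Treg-like cluster (90 cells, led by genes including Gimap4 and Tnfsf8) had 192 CPM. It is not like its epidermal namesake: effector Treg genes summed to 6532 CPM in it, against 489 CPM in the epidermal one, and its sum of resting genes, 2478 CPM, was below the 2514 CPM of an unnamed dermal cluster, so their Klrg1 levels are not compared. Havcr2 was 19.8 CPM in that cluster and 27.7 to 58.2 CPM in the other 9. Cd96 was at most 16.4 CPM, and 13 of its 31 UMIs lay in a cluster of 89 cells led by Cxcl2 and Hspa1a. Cd5 was 253 to 398 CPM. With the resting Treg-like clusters of both layers left out, the log2 ratio of Klrg1 between epidermis and dermis was -0.70, under 2-fold, against -1.07 with them, and that of Cd96 was 1.16, against 2.20. Cluster names come from markers, and the clusters of 2 libraries are not matched.

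**Figure D4:**
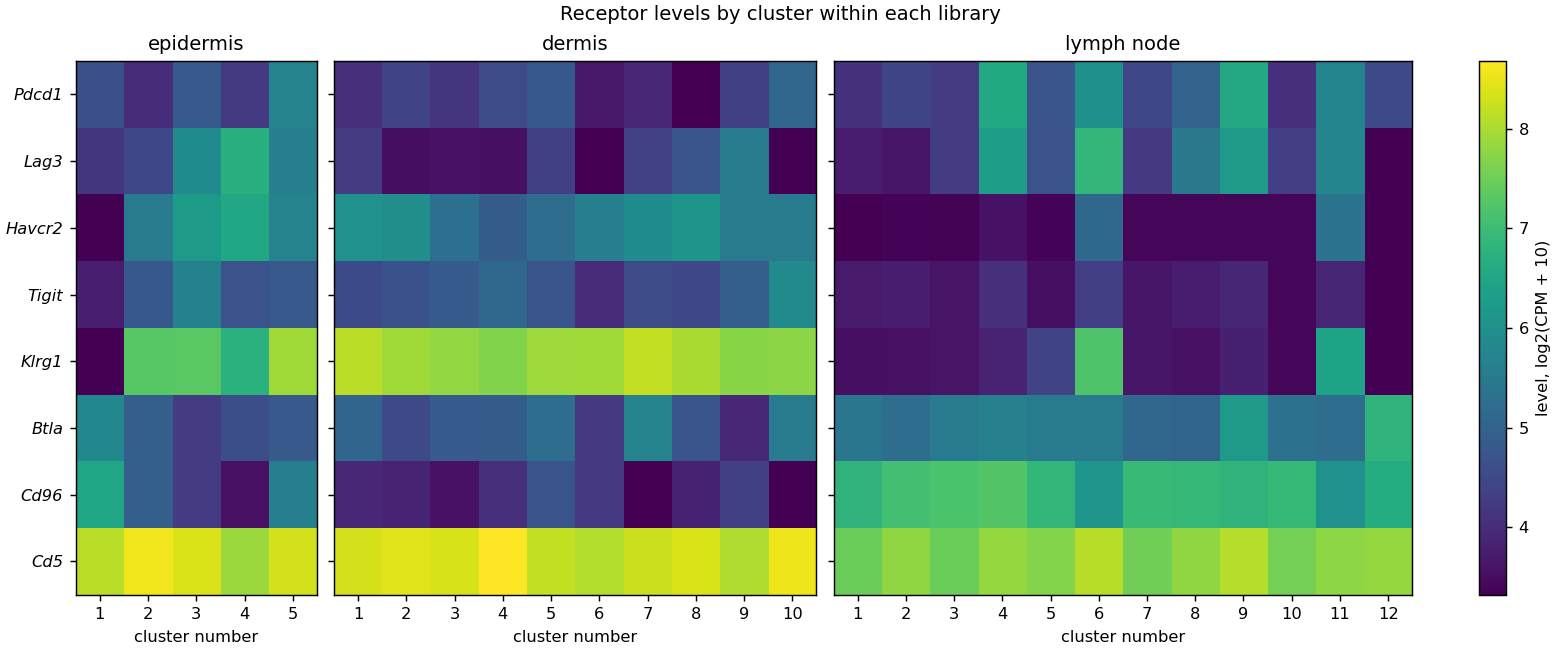
Level of each receptor, as log2(CPM + 10), in the clusters of each library (columns), clustered without the 8 genes. Klrg1 is dark in epidermal cluster 1 (0 UMIs) and bright in lymph node cluster 6 (138 CPM), while Cd96 is bright in all lymph node clusters.

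Likeness was measured as the Pearson correlation of log2(CPM + 10) over 27 clusters, centred within each library, among 4069 genes, for the 4 receptors with at least 50 UMIs in every library. The closest genes to Klrg1 were Ctla2a (r = 0.940), Lgmn (0.880) and Vim (0.879). Havcr2 was closest to Vim (0.887), Klrg1 (0.883) and Vrk1 (0.879). Btla was closest to Gm6483 (0.743), Rfx7 (0.728) and Dmtf1 (0.726), and Cd5 to Wdr26 (0.783), Clint1 (0.733) and Ctsa (0.718). The clusters share libraries, and these values describe them.

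Skin layers differed in their mix of male and female cells: 111 epidermal and 723 dermal cells had an Xist UMI and no Y-linked one, 101 and 55 had the reverse, and lymph node had 7086 of the first kind and 0 of the second. Within Xist-positive cells the difference between epidermis and dermis was 8.09-fold higher for Lag3 (5.08 to 13.1), 3.52-fold higher for Cd96 (1.86 to 6.56) and 2.57-fold lower for Klrg1 (2.03 to 3.30). Within Y-positive cells Lag3 was 5.25-fold higher in epidermis (1.33 to 45.3, 30 and 2 UMIs), Klrg1 was 2.11-fold lower (1.56 to 2.83), and Cd96 had 26 UMIs in epidermis and 0 in dermis. Against a floor of 3 dermal counts, Lag3 was 3.50-fold and Cd96 3.03-fold higher in epidermis, and the exact interval of the Cd96 ratio starts at 2.29-fold. Havcr2 stood 2.80-fold higher in epidermal than in dermal Y-positive cells (1.10 to 9.08, 40 and 5 UMIs) and 1.18-fold in Xist-positive ones (0.823 to 1.66). Against lymph node, Xist-positive epidermal cells had Pdcd1 2.61-fold lower (1.45 to 5.25) and Btla 2.08-fold lower (1.23 to 3.82). Both passed 2-fold there and not in all cells. Klrg1 stood 3.57-fold higher in them (2.77 to 4.53), against 5.38-fold (4.63 to 6.23) in all cells. In Xist-positive dermal cells Klrg1 was 9.18-fold higher than in lymph node (8.29 to 10.2), against 11.3-fold (10.2 to 12.4). Havcr2 was 10.4-fold higher in epidermis and 8.79-fold in dermis, and Tigit 5.63-fold and 3.69-fold.

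Genes around these receptors were counted on 4 lists, with a member counted only if it had 10 CPM in 1 of the libraries compared. Of 15 ligands and co-receptors, 9 could be counted: none passed 2-fold between epidermis and dermis, and 2 stood above lymph node in each layer, near the 20.7% of all genes called higher in epidermis and the 24.1% in dermis. Those were Cd274, the gene of PD-L1 (56.2 CPM in epidermis, 77.1 CPM in dermis and 13.1 CPM in lymph node), and Cd80, a ligand of CD28 and CTLA-4 (13.2, 23.1 and 3.01 CPM). Of 16 genes of inhibitory signalling, all counted, none passed between the layers. Against lymph node, 4 were higher in epidermis, and 6 were higher and 2 lower in dermis. The epidermal count is near the 20.7% of all genes called higher there, and the dermal counts stand beside 24.1% of all genes higher and 10.3% lower. Inpp5d, the phosphatase SHIP-1, was 2.72-fold higher in epidermis (2.34 to 3.14) and 3.46-fold in dermis (3.13 to 3.82), while the phosphatase gene Ptpn6, SHP-1, was 3.07-fold lower in dermis (46.9 CPM, against 144 CPM in lymph node). Of the others, Ubash3b, Grb2 and Cblb were 2.51-fold, 2.59-fold and 2.45-fold higher in epidermis, Ubash3b was 3.09-fold higher in dermis, and the adapter gene Sh2d1a was 3.12-fold lower in dermis.

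Other inhibitory receptors and transcription factors stood further from lymph node. Of 12 other inhibitory receptors, 5 could be counted, with 2 higher in epidermis and 3 in dermis than in lymph node and none lower, on few genes, beside 20.7% and 24.1% of all genes higher. Ctla4 had 1120 CPM in epidermis, 2235 CPM in dermis and 166 CPM in lymph node, and Cd200r1 had 67.6, 132 and 25.6 CPM. Cd101 was 2.07-fold higher in dermis. Of 13 transcription factors linked to these receptors, 10 could be counted: 2 were higher and 1 lower in epidermis than in dermis, 6 higher and 1 lower in epidermis against lymph node, and 6 higher and 2 lower in dermis against lymph node. Over all genes the shares higher and lower were 5.34% and 4.18%, 20.7% and 3.85%, and 24.1% and 10.3% in these comparisons. Prdm1, which encodes BLIMP-1, had 72.1, 90.3 and 9.63 CPM in epidermis, dermis and lymph node, and Maf had 499, 679 and 81.8 CPM. Nr4a1 had 357, 780 and 36.7 CPM and was the factor that stood lower in epidermis than in dermis, by 2.18-fold. A marker list of 9 immediate early genes, among them Fos and Junb, summed to 3704, 9073 and 316 CPM in the same order of tissues. The part of that difference in the values of Nr4a1 and the other factors was not tested. Tcf7, which encodes TCF-1 and marks resting T cells, had 33.6 CPM in epidermis, 1.51 CPM in dermis and 97.4 CPM in lymph node, and Bach2 25.8, 4.97 and 28.1 CPM. Tcf7 and Bach2 thus stood 22.2-fold (10.3 to 57.1) and 5.20-fold (3.16 to 8.85) higher in epidermis than in dermis. Without shared barcodes the counts of the 4 lists were the same in the 3 comparisons but for Ctla4, then 2.01-fold lower in epidermis against dermis, and Nr4a1, then 1.94-fold lower and under the limit. Irf4 was 4.30-fold higher in epidermis than in lymph node. Medians of the lists were -0.09, -0.03, -0.33 and -0.25 log2 between epidermis and dermis, 0.26, 0.54, 0.71 and 1.46 between epidermis and lymph node, and 0.36, 0.37, 1.05 and 1.98 between dermis and lymph node, in the order ligands, signalling, receptors, factors. As with the receptors, the medians against lymph node stand beside an all-gene median of 0.20 and 0.14.

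**Figure D5:**
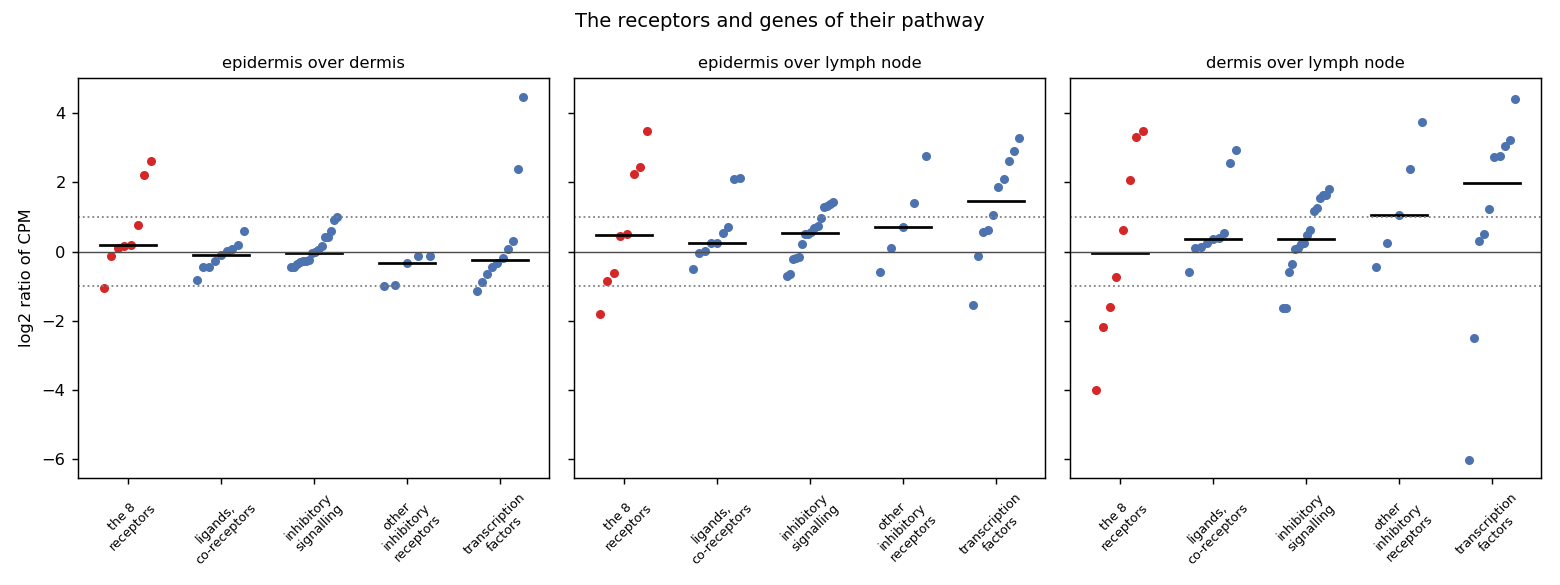
Log2 ratio of CPM in each comparison for the 8 receptors (red) and the counted genes of 4 lists around them (blue), with the median of each set as a black line and dotted lines at 2-fold. The receptors spread on both sides of 0 in each comparison, with a median of -0.05 between dermis and lymph node, while the transcription factors have a median of 1.98 there.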

How the data were processed

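The authors deposited UMI counts, with no normalization, for each gene and barcode. They came from Cell Ranger on mm10, per the submitters' processing notes. The skin files name version 4.0.0, per the file headers, and for lymph node a version was not given in the sources used here. Barcodes were already called as cells. The receptors, gene lists and settings were chosen with earlier results of these data known. Barcodes were kept with at least 500 UMIs and at most 10% mitochondrial UMIs. UMIs were summed per library and given as CPM with exact Poisson intervals, and ratios with exact binomial intervals, all at 95% and for counting error only; with 1 library per tissue no test was run. A gene was counted at 2-fold or more with at least 10 CPM in the higher library. All 8 receptors are named, and of each other list up to 4 genes per comparison, those past both limits with the largest ratios. Gene positions were from GENCODE. Each library was clustered without the receptors (1500 variable genes, 20 components, 15 neighbours, Leiden resolution 1; scanpy 1.11.5, leidenalg 0.10.2), and clusters were named from at least 3 markers among the 20 leading genes. Shares of cells used cells thinned to 1500 UMIs, with exact Clopper-Pearson intervals. Scrublet scores were used for doublets, which stayed in the main values: it marked 28 epidermal, 14 dermal and 0 lymph node cells, so it did not work in lymph node. Alternatives covered cell filters, cells of 1 sex, summaries, scaling (TMM in edgeR 4.0.16, median-of-ratios in DESeq2 1.42.0), CPM minimum and fold limit. Those without cycling-like or resting Treg-like clusters or shared barcodes were added after seeing the data. Clusters were left out by name, which took cycling-like ones from epidermis and lymph node only. Resting Treg-like ones were taken from epidermis and dermis only. The ratio intervals were checked on simulated counts that held counting error only. That check says nothing of UMIs clumped in few cells, as for Lag3 in epidermis. Python 3.11.15, numpy 2.4.6, pandas 2.3.3, scipy 1.17.1 and R 4.3.3 were used.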

Additional observations from a re-analysis of the deposited data

Results flagged for a closer look

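Barcodes left out by the mitochondrial limit also carried receptor transcripts: 121 UMIs of the 8 receptors in 63 epidermal barcodes, 218 in 202 dermal barcodes and 53 in 19 lymph node barcodes. As CPM this was 1077, 731 and 1529 in the removed barcodes, against 580, 649 and 439 in the kept cells of the same tissues. Among them were 31 Lag3 UMIs in epidermis, beside 97 in kept epidermal cells, and 4 in dermis. With all barcodes used, the counts of receptors past 2-fold did not move by more than 1.5 times in any comparison.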

How the results depend on the processing

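No paired analysis was possible because each tissue has 1 library and no test was run. Of 415 log2 ratios of single receptors under alternative settings, 344 moved by less than their counting interval, 71 by more, and none of a counted receptor changed direction. Of 128 counts of receptors, 112 stayed within 1.5 times. Between epidermis and dermis, the 1 lower receptor (Klrg1) became 0 with at least 1000 UMIs and at most 5% mitochondrial UMIs, with totals without mitochondrial and ribosomal protein genes, without resting Treg-like clusters, and at a 3-fold limit. The 2 higher became 4 in Y-positive cells and 0 at a minimum of 50 CPM. Between epidermis and lymph node, the 1 lower became 2 without doublets, with median-of-ratios scaling, with totals without mitochondrial and ribosomal protein genes and without resting Treg-like clusters, and 3 in Xist-positive cells, with TMM and at a 1.5-fold limit; the 3 higher became 1 at 50 CPM. The setting without resting Treg-like clusters left lymph node whole, as no cluster there had that name, although some had high sums of resting genes. Between dermis and lymph node, the 3 higher and the 3 lower each became 1 at 50 CPM. At 50 CPM and at other fold limits fewer or more genes can pass by construction; for the other settings the cause was not tested. Pdcd1 between epidermis and dermis ranged from log2 0.07 to 1.66 and passed 2-fold in 3 of 18 settings, and between epidermis and lymph node from -1.39 to -0.11, past 2-fold in 5 of 17. Low UMI numbers limit Pdcd1, Lag3, Tigit and Cd96 in skin most, and unknown variation between animals limits every value.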

Other observations

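Dermal cluster 9, led by the cycling genes Ccnb2, Birc5 and Stmn1, held 41 cells, of which 23 had a barcode shared with epidermis, each as the shallower copy. It also had the highest dermal Lag3 level, 36.1 CPM, on 7 UMIs. In its 18 other cells Lag3 was 19.2 CPM (3.95 to 56.0), on 3 UMIs. With each shared barcode kept only in its deeper library, Lag3 stood 6.99-fold higher in epidermis than in dermis (4.57 to 11.0). The origin of the shared barcodes was not tested.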
